A study of Homo sapiens with 12 samples.

Results

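Replication-dependent histone genes supply the histones that package newly copied DNA, and their nascent transcription was read in T47D, a line of human breast cancer cells that express the estrogen receptor. The members were every gene whose symbol is H1-1 to H1-6, or H2AC, H2BC, H3C or H4C followed by a number, with pseudogenes left out and among the genes whose ID could be paired with a symbol. H2AC18 and H2AC19, which RefSeq places in a cluster on chromosome 1, could not be paired and were not analysed here. H2BC12L, whose symbol carries a letter after the number, was kept. That gave 68 of the 59410 genes kept: 6 linker H1 genes, 15 H2A, 19 H2B, 13 H3 and 15 H4 genes. The assay was PRO-seq, which sequences the RNA that engaged polymerases extend in a nuclear run-on. Of 12 libraries in 6 groups of 2, a pair came from hormone-starved cells given 1 nM estradiol for 1 h. Another pair came from hormone-starved cells given the vehicle, 0.1% DMSO by volume, also for 1 h. The other groups grew in complete medium and received fulvestrant, raloxifene or tamoxifen at 100 nM for 1 h, or the vehicle, 0.1% DMSO by volume. All groups are labelled with 3 days in medium. How the cells were starved is not described in the protocols, and starvation is known from group names and the design. What estradiol was dissolved in was not stated. Fulvestrant is a steroidal estrogen receptor antagonist and degrader, and raloxifene and tamoxifen are non-steroidal selective receptor modulators.

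These genes lie in clusters, mostly lack introns, and make mRNAs that end in a stem-loop bound by SLBP instead of a poly(A) tail. Methods that select poly(A) RNA therefore miss much of their output, whereas a nascent RNA assay does not depend on the tail. Their transcription takes place at histone locus bodies, nuclear bodies organised by the coactivator NPAT, which cyclin E with CDK2 phosphorylates as cells enter S phase. In estrogen receptor-positive breast cells, estradiol is known as a signal for the passage from G1 into S phase.

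Promoters are shown first because several motifs were more frequent in members than in all promoters, although the families differed in which they held. The sequences are the 250 bases before the annotated start, 5′ to 3′ on the gene's strand, from RefSeq on GRCh38.p14. Capitals mark 4 motifs on either strand: the TATA box TATAAA, the CCAAT box CCAAT, the octamer ATTTGCAT bound by POU2F1, and the H4 site II core GGTCCG bound by HINFP. H2AC6 was the gene called lower with raloxifene, and H2BC18 and H3C2 were called between starved and complete medium. H4C14 was among the most transcribed members, and H2AC11 and H4C13 were nearly silent. H2AC6 lies at chr6:26123922-26124171 (+), H2AC11 at chr6:27132793-27133042 (+), H2BC18 at chr1:149812371-149812620 (-), H3C2 at chr6:26032100-26032349 (-), H4C14 at chr1:149832407-149832656 (+) and H4C13 at chr6:27873535-27873784 (-), each range being the printed promoter stretch.
H2AC6: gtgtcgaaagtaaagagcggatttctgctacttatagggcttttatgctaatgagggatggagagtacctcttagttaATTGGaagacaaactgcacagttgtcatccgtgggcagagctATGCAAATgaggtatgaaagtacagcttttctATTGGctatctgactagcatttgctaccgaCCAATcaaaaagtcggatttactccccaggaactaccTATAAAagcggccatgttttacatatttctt
H2AC11: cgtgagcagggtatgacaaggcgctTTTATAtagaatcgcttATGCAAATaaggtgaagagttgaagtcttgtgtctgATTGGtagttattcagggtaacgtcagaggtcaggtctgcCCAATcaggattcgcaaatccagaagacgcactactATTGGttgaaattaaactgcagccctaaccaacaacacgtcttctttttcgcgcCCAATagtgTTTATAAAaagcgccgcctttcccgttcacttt
H2BC18: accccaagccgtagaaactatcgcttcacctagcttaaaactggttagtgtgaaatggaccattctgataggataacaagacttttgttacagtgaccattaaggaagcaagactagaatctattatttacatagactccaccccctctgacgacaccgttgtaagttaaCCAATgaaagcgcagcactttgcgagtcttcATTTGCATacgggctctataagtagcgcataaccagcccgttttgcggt
H3C2: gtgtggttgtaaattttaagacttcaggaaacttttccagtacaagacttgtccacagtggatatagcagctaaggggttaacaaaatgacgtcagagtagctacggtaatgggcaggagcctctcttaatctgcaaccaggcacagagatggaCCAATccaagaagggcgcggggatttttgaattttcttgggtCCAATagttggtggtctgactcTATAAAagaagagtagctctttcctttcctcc
H4C14: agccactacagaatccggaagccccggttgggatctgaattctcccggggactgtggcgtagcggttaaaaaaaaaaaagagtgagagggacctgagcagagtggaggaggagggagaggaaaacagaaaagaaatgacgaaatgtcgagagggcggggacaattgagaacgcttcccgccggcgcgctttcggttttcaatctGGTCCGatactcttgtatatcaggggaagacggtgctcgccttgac
H4C13: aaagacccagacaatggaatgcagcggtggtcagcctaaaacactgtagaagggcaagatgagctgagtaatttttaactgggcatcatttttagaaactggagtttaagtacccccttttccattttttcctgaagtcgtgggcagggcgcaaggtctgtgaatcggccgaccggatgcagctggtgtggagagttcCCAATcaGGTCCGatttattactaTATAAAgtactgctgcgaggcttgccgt

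H2AC6 carries CCAAT boxes, the octamer and a TATA box, H2BC18 a CCAAT box and the octamer, H3C2 CCAAT boxes and a TATA box, and H4C14 the H4 site II core alone of the 4 motifs. The nearly silent H2AC11 holds the same kinds of motif as H2AC6, and the nearly silent H4C13 holds the site II core of H4C14 together with a CCAAT box and a TATA box. In H2AC11, matches to TATAAA on opposite strands overlap in the run TTTATAAA.

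Motifs were counted in the RefSeq window of 250 bases before to 50 after the start, on both strands, for 62 members and for all 27305 full-length promoters. H2AC12, H2BC12L, H3C11, H3C12, H4C1 and H4C3 were not among them. CCAAT occurred in 52 of 62 members (83.9%) against 35.7% of all promoters, in all H1, H2A, H2B and H3 promoters read but in 3 of 13 H4 promoters. The octamer occurred in 26 members (41.9%) against 1.8% of all promoters. Most of these were H2A and H2B genes, with 11 of 14 and 14 of 18 promoters, while the octamer was in no H1 or H4 promoter read. The 1 H3 gene, H3C4, is annotated with the same start as H2AC7, so its window is the H2AC7 promoter, counted for both genes. GGTCCG occurred in 15 members (24.2%) against 11.2% of all promoters, and 12 of the 13 H4 promoters held it. TATAAA occurred in 40 members (64.5%) against 12% of all promoters, and within 40 to 20 bases before the start in 32 members (51.6%) against 2.55%. The palindromic estrogen response element, with any 3 bases between its arms, occurred in 0 of 62 members and in 0.0659% of all promoters. These are matches of letters in a fixed window, not measured binding. The windows of 11 divergent H2A and H2B pairs, with starts 194 to 248 bp apart, overlap. A match between the starts of such a pair was counted for both genes, as the octamer of H2AC6 was for H2BC4. The member counts are therefore not counts of separate stretches of DNA. Of the 8 members too low to test, 7 held CCAAT, 6 TATAAA, 3 the octamer and 2 GGTCCG.

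Levels are normalised read counts (CPM), scaled between libraries by the TMM method. Library totals ran from 3682311 to 7856803 counts. The 68 genes took from 0.2026% of counts in tamoxifen library 3 (95% exact binomial interval 0.1994 to 0.2059%) to 0.2675% in raloxifene library 4 (0.2623 to 0.2729%). These intervals cover counting error only, and would be too narrow if copies made by PCR were counted like separate molecules. In each group, library 3 was deeper than library 4. The luminal markers fixed for the cell check were present in every library, led by ESR1, PGR and GATA3, with a summed level of 4406 to 6396 CPM, against 33.0 to 46.2 CPM for 15 markers of basal, stromal, endothelial and blood cells, of which 5 stayed under 1 CPM everywhere and none was at 0 throughout. All 8 estrogen response genes checked rose with estradiol and all 8 fell with fulvestrant, 7 of 8 fell with raloxifene and 0 of 8 passed the test with tamoxifen.

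Of the 68 genes, 60 passed the filter on low counts and 8 did not: H1-1, H2AC1, H2AC11, H2BC1, H3C8, H4C7, H4C9 and H4C13. Those 8 averaged 0.055 to 0.993 CPM over the 12 libraries, with 5 to 75 counts in all 12 together. H2AC1 and H2BC1 are the testis H2A and H2B genes. Just inside the filter stood H2BC11 at 2.20 CPM, H1-6, the testis linker histone, at 2.36 CPM, and H2BC12L at 2.52 CPM, and just outside it stood H2AC11 at 0.993 CPM and H4C9 at 0.834 CPM. The 60 tested genes ranged from 2.20 to 128.6 CPM with a median of 31.8 CPM.

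Transcription was uneven within each family, as the plot of mean level along the chromosomes shows. The 12 highest genes by mean CPM were H4C15 (128.6 CPM), H4C14 (120.3 CPM), H2BC21 (96.2 CPM), H2AC6 (95.6 CPM), H2BC5 (95.5 CPM), H2BC4 (93.9 CPM), H2BC8 (89.8 CPM), H4C5 (78.8 CPM), H4C2 (74.2 CPM), H4C16 (71.0 CPM), H3C14 (69.6 CPM) and H3C15 (68.9 CPM). H2A, H2B, H3 and H4 genes all stood among them, and the highest H1 gene, H1-2, averaged 66.1 CPM. Per kb of annotated gene, the tested range was 1.98 to 303.7 CPM per kb, with H4C14 highest and a median of 54.4 CPM per kb. The annotated length matters for this scale: 60 members are shorter than 1000 bp, with a median of 494 bp over all members, but 8 have annotations of 1000 bp or more, up to 29682 bp for H2BC18. H2BC18 was accordingly the lowest of the tested genes per kb, at 1.98 CPM per kb, although its level was 58.7 CPM.

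**Figure D1:**
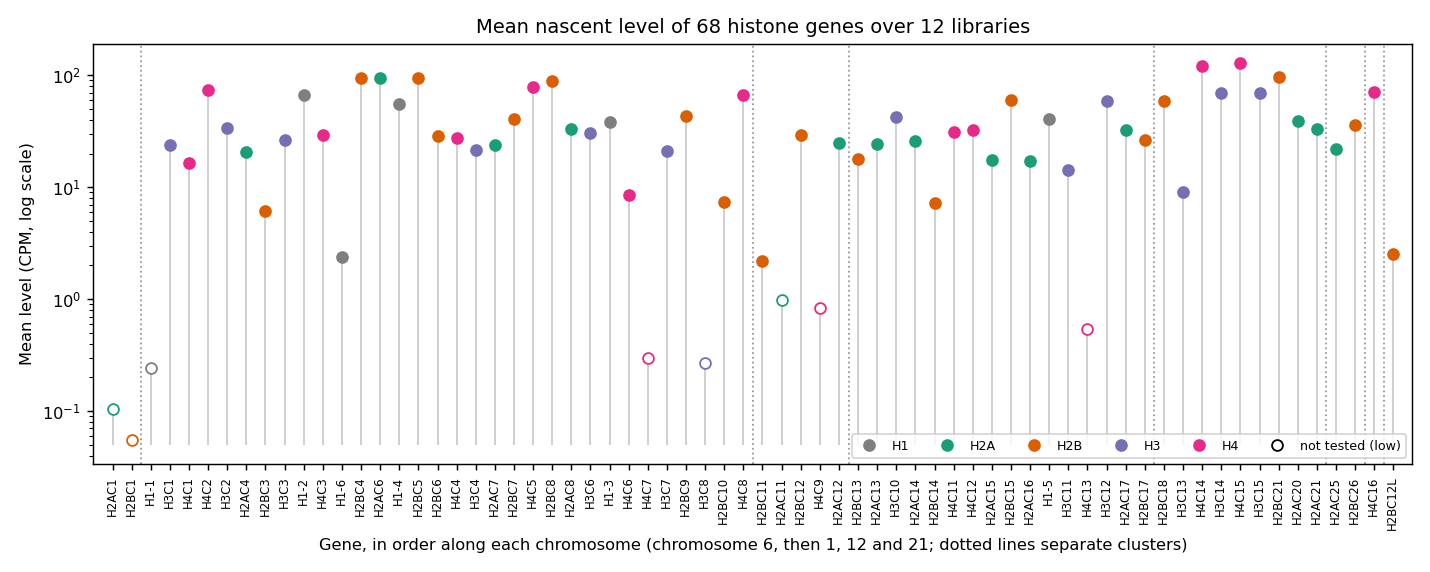
Mean level over 12 libraries (CPM, log axis) of each of the 68 histone genes, in the order of their positions on chromosomes 6, 1, 12 and 21, coloured by family, with open circles for the 8 genes too low to test. Levels ran from 0.055 CPM at H2BC1 to 128.6 CPM at H4C15, and genes too low to test, such as H4C7 and H3C8, lay between tested neighbours.

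Chromosome 6 held 55 members, chromosome 1 held 11, and H4C16 and H2BC12L stood alone on chromosomes 12 and 21. The main cluster, chr6:26017032-26285534, had 32 members, 29 of them tested, with a summed level of 1199 CPM. The cluster at chr6:27807479-27893891 had 16 members, 15 of them tested, and summed to 450.6 CPM. Between these lay chr6:27132316-27147562, where 3 of 5 members were tested and the sum was 58.2 CPM. The cluster at chr1:149782689-149887965 had 9 members, all tested, and reached 623.7 CPM. The paired genes at chr1:228457364-228458558, H2AC25 and H2BC26, summed to 58.0 CPM, while the testis pair H2AC1 and H2BC1 at chr6:25726063-25727345 summed to 0.16 CPM.

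H2A and H2B genes often start back to back, and 11 H2A and H2B pairs had divergent starts within 500 bp. H3C4, which shares its annotated start with H2AC7, made a further pair with H2BC7 at the same place. Over the 12 pairs the starts were 194 to 248 bp apart, with a median of 234 bp. Levels within a pair could be even or uneven. H2BC4 and H2AC6, whose starts are 246 bp apart and so share the sequence printed above, averaged 93.9 and 95.6 CPM. Their annotated lengths differ, 10757 bp for H2BC4 and 519 bp for H2AC6, and per kb they had 8.73 and 184.1 CPM. H2AC14 had 26.1 CPM against 7.21 CPM for H2BC14, 3.62 times as much, and H2BC15 had 60.5 CPM against 17.6 CPM for H2AC15, 3.45 times as much.

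Some counts cannot be assigned to 1 gene with certainty. H3C14 and H3C15, which encode the H3.2 form, and H4C14 and H4C15 are near-identical copies: the promoter windows of H4C14 and H4C15 differed at 0 of 300 positions, and those of H3C14 and H3C15 at 0 of 296 after a shift of 4 bases. The ratio of counts between copies stayed between 0.924 and 1.14 for H3C14 over H3C15 and between 0.880 and 1.10 for H4C14 over H4C15 in all 12 libraries. How reads that map to both copies were counted was not stated. The annotation of 11 members overlaps another RefSeq gene, among them H4C15, which spans 16753 bp and contains H3C15, and H2BC18, which overlaps FCGR1A. The strand setting of the counting was not stated, so reads of overlapping genes cannot be told apart.

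By family, summed levels changed less between groups than between some libraries of 1 group. H2B genes summed to 838.2 and 785.8 CPM in the libraries with estradiol, against 743.0 and 781.7 CPM with vehicle in starved cells. With complete medium, H2B genes summed to 710.7 and 795.0 CPM with fulvestrant, 604.1 and 802.3 CPM with raloxifene and 601.5 and 696.9 CPM with tamoxifen, against 755.1 and 793.6 CPM with vehicle. H4 genes gave 755.8 and 749.2 CPM with estradiol against 676.0 and 710.2 CPM with vehicle in starved cells. In complete medium H4 genes gave 599.7 and 717.9 CPM with fulvestrant, 550.8 and 764.8 CPM with raloxifene and 543.9 and 661.1 CPM with tamoxifen, against 736.2 and 768.8 CPM with vehicle. Over all 68 genes the sum was 2630 ± 53.7 CPM with estradiol against 2463 ± 76.5 CPM with vehicle in starved cells (SD, n = 2 each). In complete medium it was 2487 ± 240 CPM with fulvestrant, 2368 ± 484 CPM with raloxifene and 2211 ± 255 CPM with tamoxifen, against 2621 ± 109 CPM with vehicle (SD, n = 2 each). The libraries of the drug groups spread more widely than those of the vehicle and estradiol groups.

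**Figure D2:**
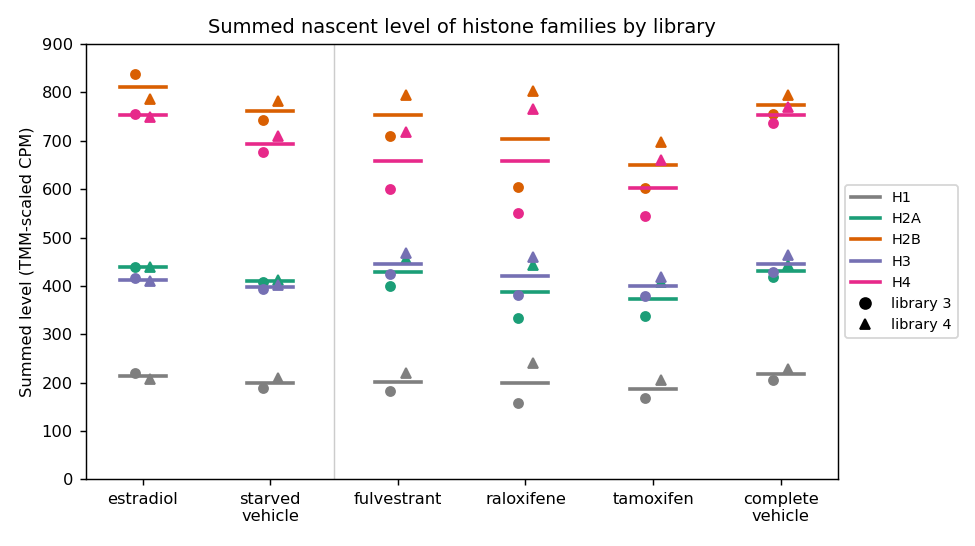
Summed TMM-scaled CPM of the H1, H2A, H2B, H3 and H4 genes in each library (circles library 3, triangles library 4), with a bar at the mean of each group's 2 libraries. H2B and H4 genes lay highest, at 543.9 to 838.2 CPM. In the groups of the drugs and of either vehicle, library 4 lay above library 3 in each family, but not in the estradiol group.

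In the drug groups most histone genes were higher in library 4 than in library 3. The median of library 4 minus library 3 over the 60 tested genes was 0.45 on the log2 scale in the raloxifene group, where 56 of 60 genes were higher in library 4, 0.27 in the tamoxifen group (53 genes) and 0.18 in the fulvestrant group (53 genes). In the complete vehicle group it was 0.091 (43 genes), in the starved vehicle group 0.035 (39 genes) and in the estradiol group -0.049 (22 genes). In 29 other protein-coding genes under 1000 bp the same median was 0.11 for raloxifene, 0.087 for tamoxifen and -0.021 for fulvestrant, each smaller than the histone median of that group. Raloxifene library 3 was the deepest library and raloxifene library 4 the shallowest. The part of depth or of any batch in this spread was not tested. In bulk samples, fewer cells in S phase and less histone RNA per cell cannot be told apart.

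**Figure D3:**
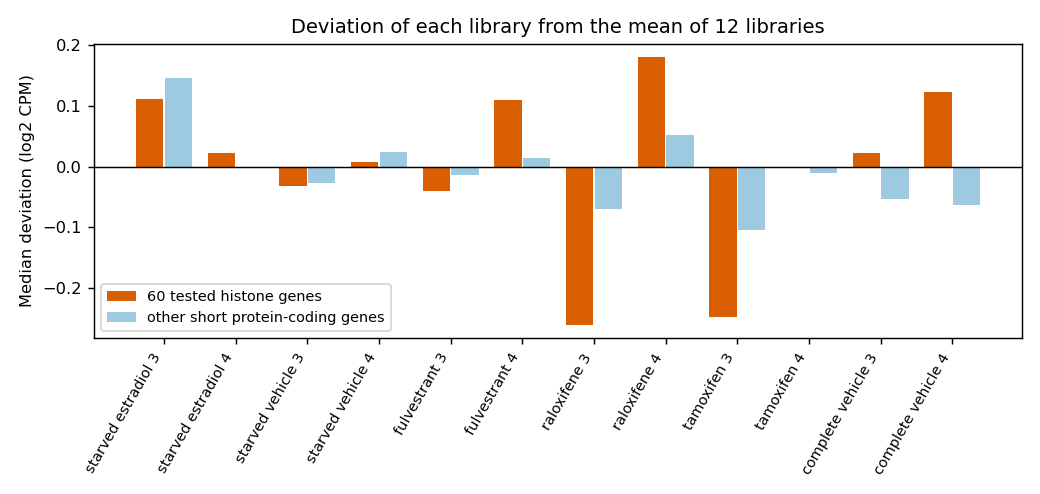
Median deviation of each library from the mean of the 12 libraries (log2 CPM) for the 60 tested histone genes and for 29 other protein-coding genes under 1000 bp. The histone median was -0.26 in raloxifene library 3 and -0.25 in tamoxifen library 3, against 0.18 in raloxifene library 4, while the other short genes stayed between -0.10 and 0.15.

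Whether the libraries within a group stem from separate cultures is not in the labels, so the p-values below measure library-to-library spread, which could be technical only. Genes are called higher or lower at an adjusted p under 0.05 over the 23375 genes tested. Shares of all genes called were computed for this main test only, not for the alternatives mentioned below. Comparisons that use the same vehicle libraries are not independent: starved vehicle enters both the estradiol and the starvation comparison, and complete vehicle enters the starvation comparison, the comparison of estradiol-treated starved cells with complete vehicle and all 3 drug comparisons.

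With estradiol for 1 h in starved cells, none of the 60 histone genes was called, while 8.77% of all genes tested were called, 5.04% higher and 3.74% lower. By edgeR's quasi-likelihood test, 0 of the 60 reached an unadjusted p under 0.05, as 19.1% of all genes did, and the DESeq2 Wald test also called 0. The median log2 fold change of the 60 genes was 0.084, against -0.013 over all genes, and 49 were above and 11 below 0. The median was 0.15 in the 29 other short protein-coding genes, against 0.076 in the 52 tested histone genes under 1000 bp. For 58 of the 60, the 95% interval of the fold change lay within 2-fold in either direction. The largest changes by p in each family were small. H4C5 had 94.3 and 91.1 CPM with estradiol, against 74.8 and 80.7 CPM with starved vehicle. H2BC21 had 113.9 and 104.3 CPM with estradiol, against 95.5 and 94.7 CPM with starved vehicle. The libraries of the groups did not overlap at either gene, yet the log2 fold changes, 0.26 ± 0.13 (SE) for H4C5 and 0.20 ± 0.100 (SE) for H2BC21, had adjusted p = 0.292 and 0.290 by edgeR's quasi-likelihood test with Benjamini-Hochberg adjustment. H3C15 at 0.17 ± 0.081, H2AC21 at 0.19 ± 0.11 and H1-4 at 0.21 ± 0.13 (log2 fold change ± SE) led the H3, H2A and H1 genes, with adjusted p = 0.280, 0.409 and 0.433 by the same edgeR quasi-likelihood test. H4C5 was called higher when no filter on low counts was used, and H4C5 and H2BC21 when only the compared groups were fitted.

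Among the replication-independent histones, which replace canonical histones outside S phase or at special sites, 2 of 11 tested genes rose with estradiol. CENPA, the centromeric H3 variant, averaged 109.3 ± 5.3 CPM with estradiol and 74.5 ± 4.4 CPM with starved vehicle (SD, n = 2 each), a log2 fold change of 0.55 ± 0.074 (SE) with adjusted p = 1.8e-05 by edgeR's quasi-likelihood test. H3-3A, which encodes the variant H3.3, averaged 51.3 ± 2.1 CPM with estradiol and 38.2 ± 1.5 CPM with starved vehicle (SD, n = 2 each), a log2 fold change of 0.42 ± 0.085 (SE) with adjusted p = 0.0021 by edgeR's quasi-likelihood test. Among 34 G1/S and DNA replication genes 1 rose and 33 did not pass. That gene, GINS2, a subunit of the replicative helicase, averaged 52.3 ± 5.0 CPM with estradiol and 34.4 ± 0.037 CPM with starved vehicle (SD, n = 2 each), a log2 fold change of 0.61 ± 0.099 (SE) with adjusted p = 0.000213 by edgeR's quasi-likelihood test. Of 16 histone chaperones 1 rose, RBBP7, a histone-binding subunit of several chromatin complexes, with a log2 fold change of 0.27 ± 0.065 (SE). Of 23 factors for histone gene transcription and processing 2 fell, NFYC and NFYB, subunits of the CCAAT-binding factor NF-Y, by 0.41 and 0.39 on the log2 scale. Of 17 tested non-histone genes of the chromosome 6 histone region 1 fell, HFE, a regulator of iron uptake, with a log2 fold change of -0.54 ± 0.11 (SE).

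Few histone genes were called between starved and complete medium. In starved vehicle against complete vehicle, 1 histone gene was called higher and 2 lower, 5% of the 60, while 18.8% of all genes tested were called, 9.1% higher and 9.67% lower. In the same comparison 30 of 34 G1/S and DNA replication genes fell. The median log2 fold change was -0.098 for the histone genes, -0.54 for the G1/S genes and 0.0073 for all genes. That of the histone genes was -0.17 when complete vehicle library 3 was left out and -0.038 when library 4 of that group was. In histone genes under 1000 bp it was -0.11, against 0.051 in the 29 other short genes. The difference between the lists was not tested. At an unadjusted p under 0.05 there were 5 histone genes of 60, by edgeR's quasi-likelihood test, against 29.4% of all genes, and 57 of 60 intervals lay within 2-fold.

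Both genes called lower encode H3, H3C2 the H3.1 form and H3C15 the H3.2 form. H3C15, at chr1:149852608-149853125, had 60.8 and 59.3 CPM with starved vehicle, against 73.5 and 74.5 CPM with complete vehicle. H3C2, at chr6:26031589-26032099, had 28.0 and 27.9 CPM with starved vehicle, against 35.8 and 39.1 CPM with complete vehicle. At both genes the starved libraries lay below the complete ones. The log2 fold change was -0.30 ± 0.081 (SE) for H3C15 and -0.41 ± 0.12 (SE) for H3C2, with adjusted p = 0.0117 and 0.0233 by edgeR's quasi-likelihood test with Benjamini-Hochberg adjustment. H3C14, the near-identical copy of H3C15, stood at -0.17 ± 0.082 (SE) and did not pass, with adjusted p = 0.176 by the same edgeR quasi-likelihood test. Across the 12 tested H3 genes, 10 had a log2 fold change below 0 and the median was -0.22.

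H2BC18, at chr1:149782689-149812370, was the gene called higher. It had 62.7 and 69.7 CPM with starved vehicle, against 55.2 and 54.6 CPM with complete vehicle, a log2 fold change of 0.27 ± 0.092 (SE) with adjusted p = 0.0459 by edgeR's quasi-likelihood test. Its annotation is 29682 bp long and overlaps FCGR1A. None of the other families had a gene past the threshold: the leading H2A gene was H2AC13 at -0.29 ± 0.12, the leading H4 gene H4C11 at -0.31 ± 0.15 and the leading H1 gene H1-6 at 0.53 ± 0.35 (log2 fold change ± SE), with adjusted p = 0.107, 0.194 and 0.352 by edgeR's quasi-likelihood test. Leaving out any 1 of the 4 libraries, starved vehicle 3 or 4 or complete vehicle 3 or 4, ended all 3 calls, with 0 genes called in either direction, and so did the DESeq2 Wald test. With only the compared groups fitted, 6 histone genes were called lower, but the share of all genes called in that fit was not computed.

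The G1/S genes that fell included regulators and the replication machinery. E2F7, a repressor of the E2F family, averaged 64.6 ± 3.1 CPM with starved vehicle and 111.3 ± 1.3 CPM with complete vehicle (SD, n = 2 each), a log2 fold change of -0.78 ± 0.075 (SE) with adjusted p = 1.4e-07 by edgeR's quasi-likelihood test. MCM5, a helicase subunit, averaged 21.4 ± 1.1 CPM with starved vehicle and 40.9 ± 4.1 CPM with complete vehicle, and CDC45, which activates that helicase, averaged 36.2 ± 4.0 CPM with starved vehicle and 64.9 ± 2.1 CPM with complete vehicle (SD, n = 2 each). RRM2, the regulated subunit of ribonucleotide reductase, averaged 168.7 ± 5.9 CPM with starved vehicle and 243.0 ± 9.9 CPM with complete vehicle (SD, n = 2 each). Histone chaperones fell in 8 of 16 cases, led by ASF1B, an H3-H4 chaperone, at -0.73 ± 0.089, and NASP, which holds the H3-H4 pool, at -0.46 ± 0.087 (log2 fold change ± SE). H3-3A fell by 0.54 on the log2 scale, the 1 of 11 replication-independent histone genes called.

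Of the factors that act on the histone genes themselves, 2 of 23 rose and 5 fell in starved vehicle against complete vehicle. NFYB and NFYC rose by 0.55 and 0.30 on the log2 scale, and E2F1, the G1/S activator, and CPSF2, a cleavage complex subunit, fell by 0.46 and 0.28. NPAT, HINFP and SLBP, picked after their values were seen because they serve this class, had log2 fold changes of -0.17 ± 0.077, 0.17 ± 0.084 and -0.32 ± 0.10 (SE). SLBP fell with adjusted p = 0.0309, and NPAT and HINFP did not pass, with adjusted p = 0.141 and 0.175, by edgeR's quasi-likelihood test. Of 17 tested non-histone genes of the chromosome 6 histone region, 4 rose and 0 fell. BTN2A2, a butyrophilin, rose by 0.77 ± 0.17, HFE by 0.39 ± 0.11, TRIM38, a TRIM family ubiquitin ligase, by 0.39 ± 0.13 and PRSS16, a serine protease of the thymus, by 0.52 ± 0.18 (log2 fold change ± SE). The histone genes of the main chromosome 6 cluster had a median of -0.064, with 0 called higher and 1 lower of 29.

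**Figure D4:**
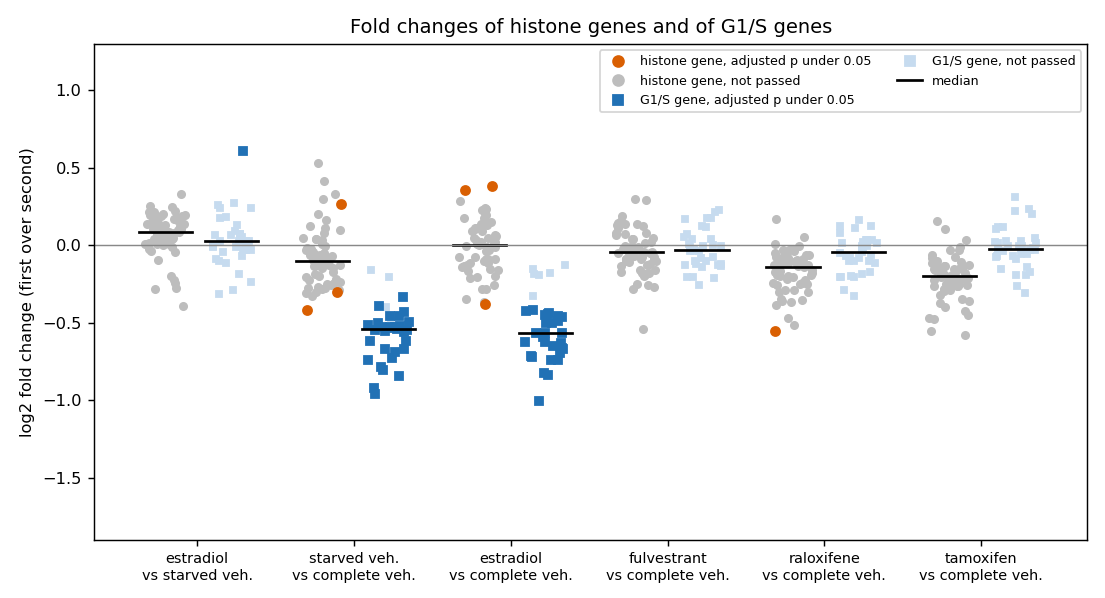
Log2 fold changes of the 60 tested histone genes (circles) and of 34 G1/S and DNA replication genes (squares) in 6 comparisons, first group over second, with adjusted p under 0.05 in orange or dark blue and a line at each median. In starved against complete vehicle the medians were -0.098 for histone genes and -0.54 for G1/S genes. In the 3 drug comparisons 0 G1/S genes were called, where 1.16% (fulvestrant), 0.569% (raloxifene) and 0.0513% (tamoxifen) of all genes tested were.

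Starved cells given estradiol for 1 h, set against complete vehicle, had 2 histone genes called higher and 1 lower, 5% of the 60, while 16.2% of all genes tested were called, 8.09% higher and 8.11% lower. By edgeR's quasi-likelihood test 5 of the 60 had an unadjusted p under 0.05, against 27.3% of all genes. The median of the histone genes was 0.0051 on the log2 scale, and that of the 29 other short genes was 0.19. That of the G1/S genes was -0.56 with 28 of 34 called lower, led by E2F7 at -0.83 ± 0.077 (log2 fold change ± SE). MCM2, another helicase subunit, averaged 26.5 ± 0.32 CPM with estradiol and 53.1 ± 1.4 CPM with complete vehicle (SD, n = 2 each). The histone median was -0.048 without estradiol library 3 and -0.050 without complete vehicle library 3, so its direction rests on single libraries. H2BC18 had 71.4 and 69.0 CPM with estradiol, against 55.2 and 54.6 CPM with complete vehicle. H3C6, another H3.1 gene at chr6:26224178-26227473, had 35.9 and 38.2 CPM with estradiol, against 25.8 and 31.4 CPM with complete vehicle. The libraries did not overlap at either gene. The log2 fold changes were 0.36 ± 0.093 (SE) for H2BC18 and 0.39 ± 0.12 (SE) for H3C6, with adjusted p = 0.0106 and 0.0368 by edgeR's quasi-likelihood test. H3C2 had 28.2 and 29.2 CPM with estradiol, again below the 35.8 and 39.1 CPM with complete vehicle, a log2 fold change of -0.38 ± 0.13 (SE) with adjusted p = 0.0478 by edgeR's quasi-likelihood test. Leading but not called were H2AC13 at -0.26 ± 0.12, H4C8 at 0.20 ± 0.13 and H1-3 at -0.15 ± 0.17 (log2 fold change ± SE), with adjusted p = 0.185, 0.361 and 0.650 by edgeR's quasi-likelihood test. Without estradiol library 3 or complete vehicle library 3, 0 genes were called higher, and without estradiol library 4 or complete vehicle library 4, 1 was. Leaving out any of the 4 libraries ended the call of H3C2, and the DESeq2 Wald test called none of the 3. In the same comparison 6 of 16 chaperones fell, among them ASF1B at -0.65 and NASP at -0.35 on the log2 scale, and 3 of 23 transcription and processing factors fell, E2F1 at -0.65, CCNE2, the second cyclin E, at -0.51 and CPSF2 at -0.24. CENPA rose by 0.38, the 1 of 11 replication-independent histones called, and BTN2A2 rose by 0.72 on the log2 scale, the 1 of 17 non-histone genes of the chromosome 6 region called.

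**Figure D5:**
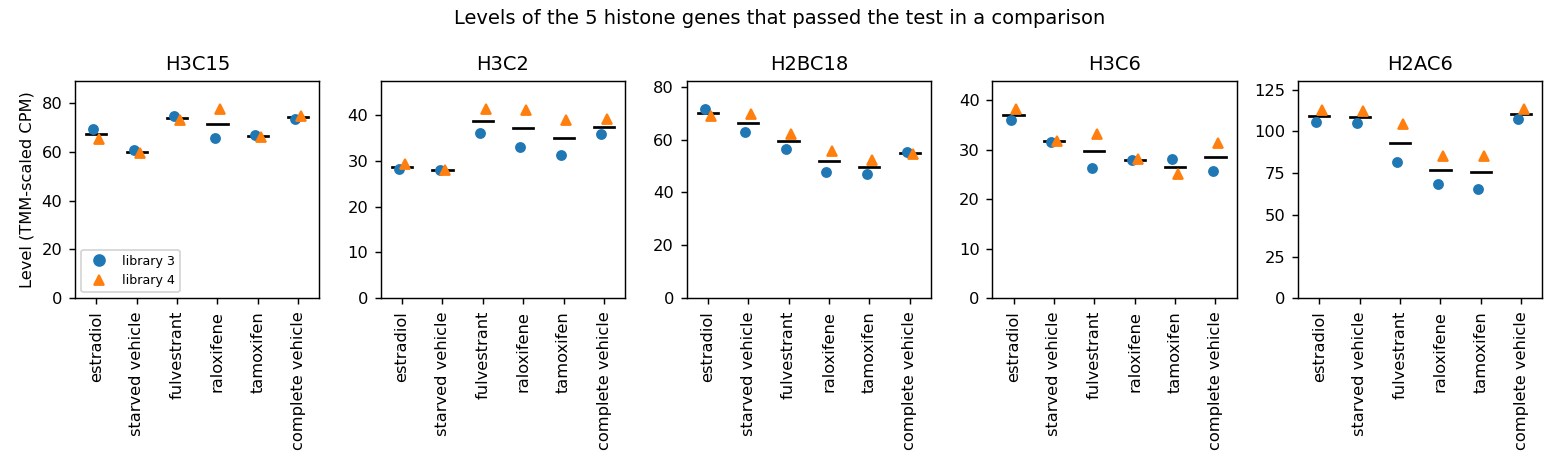
TMM-scaled CPM in every library (circles library 3, triangles library 4, bars group means) of H3C15, H3C2, H2BC18, H3C6 and H2AC6, the 5 histone genes called in a comparison. H3C2 stood at 27.9 to 29.2 CPM in the 4 starved libraries and at 31.2 to 41.2 CPM in the 8 complete-medium libraries. H2AC6 was lower in the fulvestrant, raloxifene and tamoxifen libraries than in those of either vehicle. Against complete vehicle, only its change with raloxifene was called.

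Among the drugs in complete medium, fulvestrant called no histone gene, while 1.16% of all genes tested were called, 0.107% higher and 1.05% lower. By edgeR's quasi-likelihood test 5 of the 60 had an unadjusted p under 0.05, against 7.5% of all genes, and the DESeq2 Wald test called 0. The median was -0.044, against 0.0059 over all genes and 0.16 in the 29 other short genes. It was 0.033 without fulvestrant library 3 and 0.0070 without complete vehicle library 4, and -0.11 without fulvestrant library 4 or complete vehicle library 3, so its direction rests on single libraries. H4C14 had 104.2 and 122.6 CPM with fulvestrant, against 134.5 and 138.9 CPM with complete vehicle. Its copy H4C15 had 108.9 and 138.3 CPM with fulvestrant, against 143.3 and 156.6 CPM with complete vehicle. In both, the fulvestrant libraries lay below the vehicle ones. H4C14 led all families with a log2 fold change of -0.27 ± 0.098 (SE) and adjusted p = 0.388 by edgeR's quasi-likelihood test, and all 12 tested H4 genes had a value below 0, with a median of -0.13. H2AC7 at 0.29 ± 0.13, H2BC9 at -0.18 ± 0.098, H3C10 at -0.16 ± 0.12 and H1-6 at -0.54 ± 0.41 (log2 fold change ± SE) led the other families and did not pass. H2AC6 had 81.4 and 104.3 CPM with fulvestrant, against 107.2 and 113.2 CPM with complete vehicle. Its log2 fold change of -0.25 ± 0.115 (SE) did not pass, with adjusted p = 0.634 by edgeR's quasi-likelihood test. With no filter on low counts, H4C14 and H4C15 were called lower.

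Raloxifene called 1 histone gene lower, 1.67% of the 60, and 0 higher, while 0.569% of all genes tested were called, 0.0898% higher and 0.479% lower. The gene was H2AC6, a canonical H2A gene at chr6:26124172-26124690. H2AC6 had 68.5 and 85.3 CPM with raloxifene, against 107.2 and 113.2 CPM with complete vehicle. Both raloxifene libraries lay below both vehicle libraries, and the log2 fold change was -0.55 ± 0.12 (SE), with adjusted p = 0.0357 by edgeR's quasi-likelihood test with Benjamini-Hochberg adjustment. The DESeq2 Wald test also called it. H2BC4, which starts 246 bp away on the other strand, had 70.8 and 105.4 CPM with raloxifene, against 93.5 and 99.4 CPM with complete vehicle. These overlapped, and its log2 fold change of -0.19 ± 0.13 (SE) did not pass. Whether the changes of H2AC6 and H2BC4 differ was not tested. Without raloxifene library 3 the change of H2AC6 was -0.37 with adjusted p = 0.405, and without complete vehicle library 3 or 4 adjusted p was 0.221 or 0.290, all by edgeR's quasi-likelihood test.

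Of the 60 genes, 57 had a log2 fold change below 0 with raloxifene, and 10 had an unadjusted p under 0.05 by edgeR's quasi-likelihood test, against 9.78% of all genes. The median was -0.14, against 0.0061 over all genes and -0.0053 in the 29 other short genes. This direction rests on 1 library: the median was 0.11 without raloxifene library 3, -0.22 without complete vehicle library 3 and -0.34 without raloxifene library 4. H2BC5 had 69.9 and 96.6 CPM with raloxifene, against 107.8 and 101.2 CPM with complete vehicle, and H4C14 had 96.6 and 122.7 CPM against 134.5 and 138.9 CPM with complete vehicle. H4C14 at -0.35 ± 0.100, H2BC5 at -0.38 ± 0.12, H3C12 at -0.24 ± 0.092 and H1-4 at -0.25 ± 0.14 (log2 fold change ± SE) led their families, with adjusted p = 0.166, 0.242, 0.376 and 0.615 by edgeR's quasi-likelihood test. With no filter on low counts 4 genes were called lower, H2AC6, H2BC5, H4C14 and H4C15, but the share of all genes called in that fit was not computed.

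Tamoxifen called no histone gene, while 0.0513% of all genes tested were called, 0.00428% higher and 0.0471% lower. By edgeR's quasi-likelihood test 14 of the 60 had an unadjusted p under 0.05, against 6.55% of all genes, and the DESeq2 Wald test called 1, H2AC6. H2AC6 had 65.7 and 85.4 CPM with tamoxifen, against 107.2 and 113.2 CPM with complete vehicle. The libraries did not overlap, but the log2 fold change of -0.55 ± 0.12 (SE) had adjusted p = 0.124 by edgeR's quasi-likelihood test. H4C14 had 94.3 and 113.6 CPM with tamoxifen, against 134.5 and 138.9 CPM with complete vehicle, and H2BC5 had 67.1 and 85.4 CPM against 107.8 and 101.2 CPM with complete vehicle. H4C14 at -0.40 ± 0.097, H2BC5 at -0.47 ± 0.12, H3C12 at -0.30 ± 0.089 and H1-4 at -0.25 ± 0.14 (log2 fold change ± SE) led their families, with adjusted p = 0.278, 0.311, 0.485 and 0.793 by edgeR's quasi-likelihood test.

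The median with tamoxifen was -0.20, against 0.0047 over all genes and -0.055 in the 29 other short genes, with 57 of 60 genes below 0. It was -0.094 without tamoxifen library 3 and -0.34 without tamoxifen library 4. Without a filter on low counts 6 genes were called lower, H2AC6, H2BC5, H4C2, H4C8, H4C14 and H4C15, and 2, H2AC6 and H4C15, with only the compared groups fitted. The share of all genes called in those fits was not computed, so these counts cannot be set against the 0.0513% of the main fit. The raloxifene and tamoxifen values share the complete vehicle libraries. With each of the 3 drugs, 0 of 34 G1/S genes, 0 of 16 histone chaperones, 0 of 23 transcription and processing factors, 0 of 11 replication-independent histones and 0 of 17 non-histone genes of the chromosome 6 region were called by edgeR's quasi-likelihood test. Of all genes tested, 1.16% were called with fulvestrant, 0.569% with raloxifene and 0.0513% with tamoxifen. At such shares, 0 called genes in lists of this size does not show that the lists were unmoved. The G1/S medians were -0.030 with fulvestrant, -0.044 with raloxifene and -0.021 with tamoxifen.

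The 3 drugs were compared with each other in 3 pairs at their shared dose of 100 nM and time of 1 h. No histone gene was called in any pair by edgeR's quasi-likelihood test or by the DESeq2 Wald test, at p-values adjusted over all 23375 genes within each pair. Tamoxifen against fulvestrant had a median of -0.16, with 59 of 60 genes below 0, and -0.063 in the 29 other short genes. At an unadjusted p under 0.05 there were 7 histone genes, against 5.08% of all genes, where 0.462% of all genes tested were called, 0.453% higher and 0.00856% lower. The histone median was -0.31 without tamoxifen library 4, -0.25 without fulvestrant library 3, -0.065 without fulvestrant library 4 and -0.040 without tamoxifen library 3. The leading gene was H3C12, with 47.6 and 53.4 CPM with tamoxifen against 59.1 and 62.2 CPM with fulvestrant, a log2 fold change of -0.27 ± 0.089 (SE) and adjusted p = 0.497 by edgeR's quasi-likelihood test. H2BC21 followed at -0.31 ± 0.10 (log2 fold change ± SE), and with no filter on low counts it was called lower. H2AC6 at -0.30 ± 0.12, H4C6 at -0.37 ± 0.25 and H1-5 at -0.21 ± 0.15 led the other families.

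Raloxifene against fulvestrant had a median of -0.11, with 54 genes below 0, and histone genes under 1000 bp had -0.098, against -0.083 in the 29 other short genes. At an unadjusted p under 0.05 there were 6 histone genes, against 4.9% of all genes, where 0.103% of all genes tested were called higher and 0% lower. The histone median was 0.14 without raloxifene library 3, -0.30 without raloxifene library 4, -0.19 without fulvestrant library 3 and -0.029 without fulvestrant library 4. H2AC6 had 68.5 and 85.3 CPM with raloxifene, against 81.4 and 104.3 CPM with fulvestrant, a log2 fold change with 95% interval of -0.56 to -0.049 and adjusted p = 0.981 by edgeR's quasi-likelihood test. H3C12 at -0.22 ± 0.091, H2BC18 at -0.22 ± 0.097, H1-5 at -0.21 ± 0.16 and H4C16 at -0.086 ± 0.085 (log2 fold change ± SE) led the other families. Tamoxifen against raloxifene had a median of -0.051, and -0.047 in histone genes under 1000 bp against -0.067 in the 29 other short genes. At an unadjusted p under 0.05 there were 0 histone genes, against 4.54% of all genes, where 0.00428% of all genes tested were called higher and 0% lower. The histone median was -0.32 without raloxifene library 3, -0.18 without tamoxifen library 4, 0.14 without raloxifene library 4 and 0.086 without tamoxifen library 3. The 95% interval of H2AC6 between tamoxifen and raloxifene was -0.28 to 0.28 on the log2 scale. H2BC13 at -0.28 ± 0.15, H2AC15 at 0.19 ± 0.16, H3C13 at 0.25 ± 0.22, H4C2 at -0.14 ± 0.14 and H1-2 at -0.036 ± 0.15 (log2 fold change ± SE) led their families. Intervals within 2-fold in either direction were found for 58 of 60 genes between tamoxifen and fulvestrant, 58 between raloxifene and fulvestrant and 57 between tamoxifen and raloxifene.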

How the data were processed

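PRO-seq was measured in 12 libraries of T47D cells, 6 groups of 2. The deposited values are the authors' raw read counts per Ensembl gene. Build hg38 and the tools SAMtools 1.9, Bowtie2 2.4.4 and cutadapt 1.8.1 are named by the submitters' processing notes. Which tool counted, on which annotation, strand and gene part, is not given in the sources used. Of 60605 IDs, 142 without a symbol (0.281% of counts) were kept under their ID. Where IDs shared a symbol the highest was kept, which dropped 1195. H2AC18 and H2AC19 were not analysed here.

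With edgeR 4.0.16 in R 4.3.3, filterByExpr kept 23375 genes, TMM scaled the libraries, and a quasi-likelihood model with 6 groups was fitted to 12 libraries. P-values were Benjamini-Hochberg adjusted at 0.05. Scripts were tested on simulated data. Gene positions and promoters came from RefSeq, GRCh38.p14, matched by symbol for 68 and 62 members.

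Library numbers 3 and 4 are those of the sample descriptions. Members and lists were chosen with earlier results of these data known. Named were the 12 highest members by mean CPM, members past the threshold, the lowest-p member of each family per comparison, and up to 4 genes per other list by adjusted p. Alternatives were DESeq2 1.42.0 (size factors, Wald test), no scaling, no filter, a replicate block, fits of the compared groups, summed IDs and leaving out each library.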

Additional observations from a re-analysis of the deposited data

How the results depend on the processing

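The medians over the histone genes kept their direction under all alternatives that keep the 12 libraries, except estradiol against complete vehicle, where the median was -0.0091 with no scaling beyond library totals against 0.0051. Counts of histone genes called moved more. With no filter on low counts, 1 gene was higher with estradiol against starved vehicle, 0 were lower with estradiol against complete vehicle, 2 were lower with fulvestrant, 4 with raloxifene, 6 with tamoxifen and 1 with tamoxifen against fulvestrant. With only the compared groups fitted, 2 were higher with estradiol against starved vehicle, 6 lower in starved against complete vehicle and 2 lower with tamoxifen. DESeq2 size factors gave 0 higher in starved against complete vehicle and 0 lower with estradiol against complete vehicle. The DESeq2 Wald test gave 0 higher and 0 lower in both of those comparisons and 1 lower with tamoxifen. The share of all genes called was not computed under any alternative, including the replicate block and leaving out a library. Whether calls moved more in histone genes than in other genes was therefore not tested, and nor were the causes.

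Labels number the libraries 3 and 4 in each group without saying that a number marks a shared day or batch. Deviations of same-numbered libraries correlated at 0.0467 to 0.362 over all genes in 15 pairs of groups and at -0.507 to 0.627 over the histone genes, where the 3 pairs of drug groups had 0.381, 0.558 and 0.627. With the number as a replicate block, 1 gene was higher with estradiol against starved vehicle, and lower genes numbered 4 in starved against complete vehicle, 3 with fulvestrant, 5 with raloxifene, 7 with tamoxifen (H2AC6, H2BC5, H2BC9, H4C2, H4C8, H4C14 and H4C15) and 2 with tamoxifen against fulvestrant. Without the share of all genes called under the block, these counts cannot be read as particular to the histone genes.

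Leaving out 1 library gave 0 higher and 0 lower in starved against complete vehicle, 0 to 1 higher and 0 lower with estradiol against complete vehicle, 0 to 6 lower with raloxifene and 0 to 1 lower with tamoxifen. An arm left with 1 library is assumed to vary like the other groups. Single genes changed sign. Leaving out 1 library gave -0.51 to 0.099 for H1-4 with raloxifene, and -0.49 to 0.18 for H1-5 and -0.17 to 0.037 for H4C16 with raloxifene against fulvestrant, each highest without raloxifene library 3. With tamoxifen against raloxifene, H1-2 ran from -0.42 to 0.27, with 0.11 without tamoxifen library 3, H4C2 from -0.49 to 0.12, with 0.018 without tamoxifen library 3, and H2AC15 from -0.013 to 0.31. With 2 libraries a group and 5 to 75 counts in all, the 8 lowest members could not be compared between groups at this depth.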
